A study of Mus musculus with 27 samples.

Results

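The genes of Wnt signalling at the cell surface were followed in the mouse uterus after estradiol. The set held every gene whose name in the scanner files begins with Wnt, Fzd, Sfrp or Dkk and a digit, apart from Wnt9a, together with Wif1, Frzb, Lrp5, Lrp6, Axin2, Lef1 and Lgr5. These were 43 of the 27673 named genes on the array, read by 57 probes. Of the 43, 38 were measured and tested among 21869 genes, because a gene needed a probe well above background throughout at least 1 group. The probe used was well above background on every array of all 9 groups for 34 of the 38, and Wnt10a met this in 8 groups, Wnt8b in 4, Wnt10b in 3 and Wnt2b in 1. Dkk1, Dkk4, Wnt3, Wnt3a and Wnt8a did not meet this, and their probes were well above background on at most 7 of 27 arrays.

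The animals were females of 3 kinds, C57BL/6 (B6), C3H/HeJ (C3H) and F1 from C57BL/6 x C3H/HeJ (F1), aged 8 weeks. All had lost their ovaries, the main source of estrogen, 1 to 2 weeks earlier. Each kind gave a group that received the ethanol and saline vehicle and a pair of groups that received 17β-estradiol (E2, the main ovarian estrogen; 40 μg per kg into the abdomen), with tissue taken 2 h or 24 h later. RNA from the whole uterus was hybridised to Agilent 1-colour arrays, 3 per group and 27 in all, and the comparisons ask whether the response to E2 depends on strain. The protocols speak of 3 animals per group without tying an array to an animal, so the p-values measure the spread between these arrays, which may be technical.

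Wnt proteins are secreted signals that bind Frizzled receptors together with the co-receptors Lrp5 and Lrp6. Binding lets beta-catenin reach the nucleus and act with Tcf and Lef factors, and other branches steer cell polarity and movement. Sfrp proteins, Frzb and Wif1 bind Wnt ligands outside the cell, and Dkk proteins mostly act on the co-receptors. In the uterus the pathway is known for its part in the development of the tract, the formation of glands and the preparation of the lining for an embryo.

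A level is the log2 of the processed intensity minus the 75th percentile of its array, so 0 is that percentile. Levels are compared between arrays for 1 gene and never between genes. Calls come from limma's moderated test in 1 model of the 9 groups, with p adjusted by Benjamini-Hochberg across the 21869 genes and a threshold of 0.05. The error after ± is limma's standard error (SE) of the log2 change.

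Arrays of a group correlated at r = 0.9879 to 0.9965 across genes, and on each array 72.4% to 79.4% of probes stood well above background. Deviations of over 1 log2 unit from the group mean were most frequent on 3 arrays: C3H E2 24 h replicate 1 (497 genes, 1 of them in the set), B6 vehicle replicate 1 (436 genes) and C3H E2 2 h replicate 1 (297 genes). All 6 uterine identity genes (Hox genes and steroid receptors among them) were measured. Nnt, which is damaged in some B6 stocks, was 2.04-fold higher in the vehicle uterus of C3H than of B6. H2-Ea, an MHC gene silent in B6, was well above background on 0 of 3 B6 vehicle arrays and on 3 of 3 C3H arrays.

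At 2 h the set moved in both directions, and at 24 h mostly downward. In B6, 12 genes rose and 13 fell at 2 h, 25 of 38 called, against 56.2% of all genes tested (23.1% higher, 33.1% lower). In C3H, 11 rose and 14 fell, against 60.3% (24.9% higher, 35.4% lower). In F1, 12 rose and 14 fell, against 59.2% (23.7% higher, 35.5% lower). These rises include Wnt10b in each strain and Wnt2b in F1. Both passed the filter only through 2 h groups, so they had to be high there. At 24 h, 6 genes rose and 24 fell in B6, where 30.8% of all genes were called higher and 37.1% lower (68% in all). In C3H, 3 rose and 24 fell, against 27.1% and 40.1% of all genes (67.1% in all). In F1, 5 rose and 21 fell, against 31.8% and 36.7% (68.5% in all). The falls in B6 and C3H include Wnt10b, which was not well above background with vehicle or at 24 h. The median log2 change of the 38 genes at 24 h was −0.60 in B6, −0.69 in C3H and −0.62 in F1, beside −0.05, −0.16 and −0.03 over all genes.

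The calls at 24 h rest in part on the scaling. Centring each array on its median instead moved the median change of all genes at 24 h up by 0.24, 0.19 and 0.20 in B6, C3H and F1. The split of calls was then 9 up and 20 down (B6), 5 up and 21 down (C3H), and 9 up and 19 down (F1). Over all genes median centring called 42.1%, 35.3% and 41.6% higher and 27.2%, 29.1% and 27.8% lower at 24 h. With normexp background correction of the raw signals the numbers of genes called at 2 h were 14, 12 and 12, and at 24 h 20, 16 and 16. All normexp calls of the set at 24 h were lower. Over all genes normexp called 19%, 23.9% and 26.1% at 2 h and 31.6%, 22.1% and 32.2% at 24 h. The median change of all genes was then 0.10, −0.39 and −0.49 at 2 h and −0.30, 0.08 and −0.48 at 24 h.

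**Figure D1:**
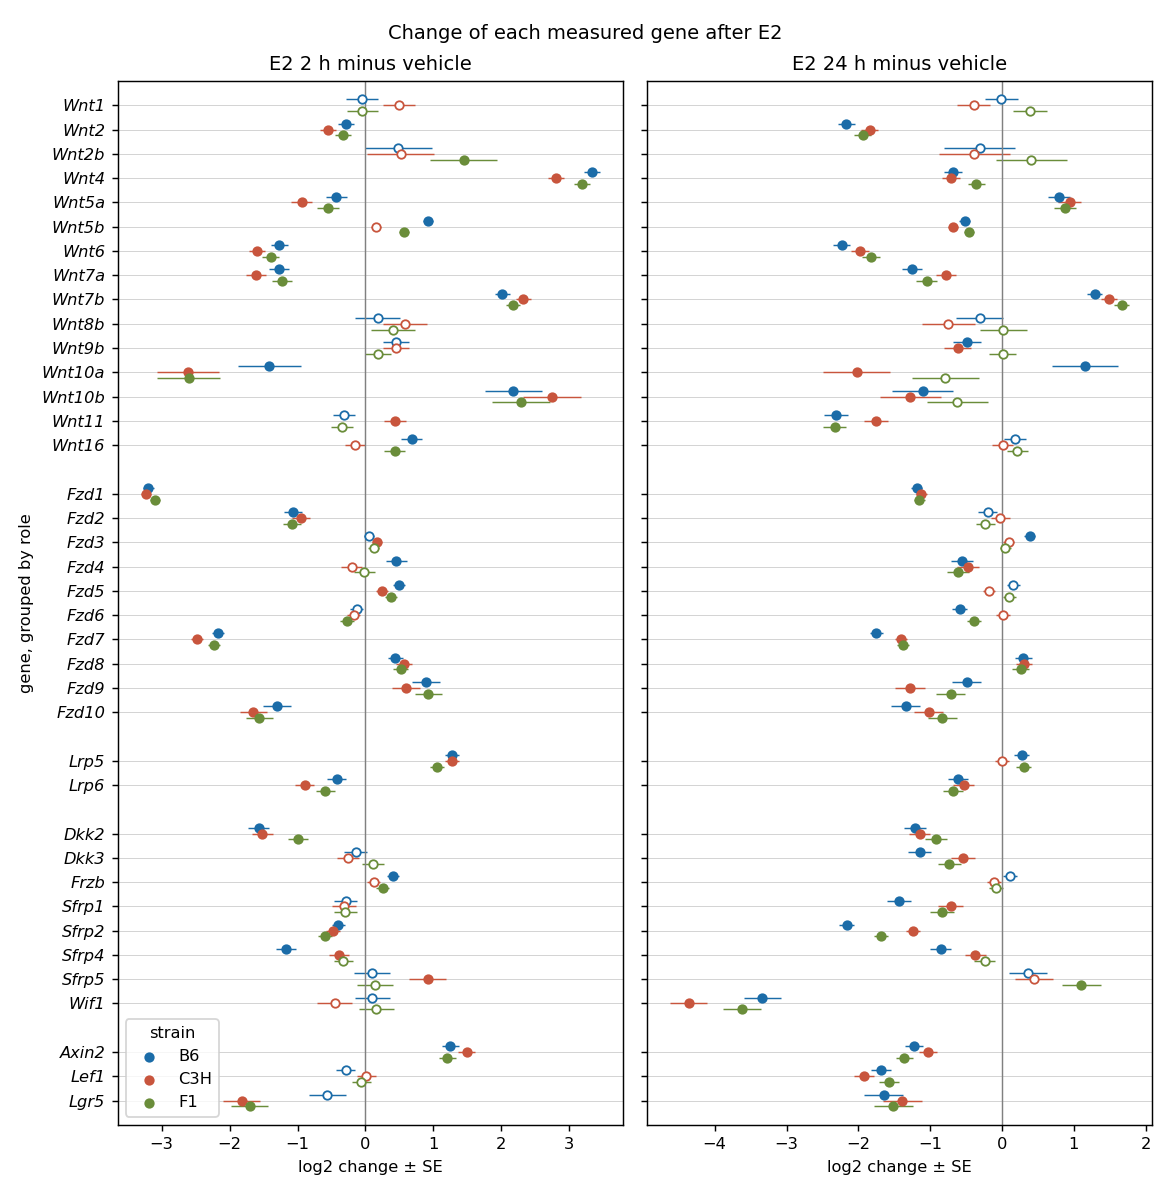
Log2 change of each of the 38 measured genes 2 h (left) and 24 h (right) after E2 against vehicle, with SE, in B6, C3H and F1 (n = 3 arrays per group). Filled points passed an adjusted p of 0.05 and open points did not. Wnt4, Wnt7b and Wnt10b lie far to the right at 2 h, Fzd1 and Fzd7 far to the left, and Wif1 lies farthest left at 24 h. Wnt10b (all strains) and Wnt2b (F1) passed the filter through 2 h groups alone, so their filled points at 2 h are no test. The vehicle and 24 h arrays of Wnt10b were not well above background.

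**Figure D2:**
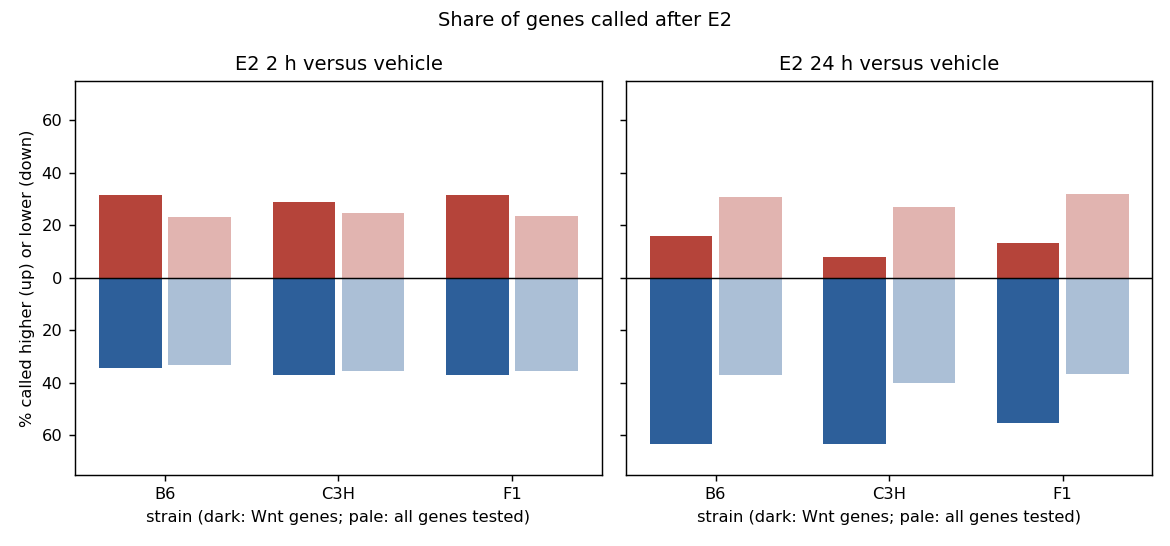
Percent of the 38 measured Wnt genes (dark) and of all 21869 genes tested (pale) that were called higher (up) or lower (down) after E2, by strain, at 2 h and 24 h. At 24 h the dark bars reach further down and less far up than the pale ones, as with 24 of 38 genes lower in B6. The dark bars upward at 2 h include Wnt10b and, in F1, Wnt2b, which had to be high there to pass the filter.

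Among the ligands, Wnt4 stood out at 2 h. Wnt4 is needed for the female reproductive tract to form and for the uterine stroma to respond to an embryo. Its probe of 60 bases is placed by the files on chr4:136674216-136674784 (mm7), a longer stretch than the probe itself, and is shown because Wnt4 had the largest rise among the genes that were well above background in all 9 groups.
Wnt4 probe: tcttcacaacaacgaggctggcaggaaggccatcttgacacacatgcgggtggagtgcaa

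In B6, Wnt4 lay at −0.28, 0.19 and −0.07 on the vehicle arrays, at 3.27, 3.25 and 3.33 at 2 h and at −0.69, −0.96 and −0.56 at 24 h. On C3H arrays Wnt4 lay at 0.22, 0.52 and 0.20 with vehicle, 3.05, 3.20 and 3.11 at 2 h and −0.47, −0.31 and −0.41 at 24 h. F1 arrays gave Wnt4 levels of −0.03, −0.08 and 0.17 with vehicle, 2.99, 3.36 and 3.26 at 2 h and −0.26, −0.32 and −0.44 at 24 h. The 2 h arrays of all 3 strains lay far above every vehicle and 24 h array, with no overlap. At 2 h Wnt4 was 10.1, 6.98 and 9.11-fold higher than with vehicle in B6, C3H and F1, log2 changes of 3.34 ± 0.12, 2.80 ± 0.12 and 3.19 ± 0.12 (adjusted p at most 7.4e-14). By 24 h it was below vehicle, with log2 changes of −0.68 ± 0.12, −0.71 ± 0.12 and −0.36 ± 0.12 (adjusted p at most 0.013). On the slides that held both groups, with 1 array of a group against 3 of the other, the 2 h change was 3.32 in B6 and 3.04 in F1.

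Wnt7b, a ligand of epithelia, also rose and stayed up. Wnt7b levels on the B6 arrays were −3.44, −3.19 and −3.34 with vehicle, −1.53, −1.38 and −1.03 at 2 h and −2.04, −1.92 and −2.15 at 24 h. Wnt7b in C3H measured −3.34, −3.37 and −3.48 with vehicle, then −1.15, −0.94 and −1.12 at 2 h and −1.96, −1.97 and −1.76 at 24 h. In F1 Wnt7b started at −3.27, −3.28 and −3.40 and measured −1.22, −0.96 and −1.26 at 2 h and −1.66, −1.58 and −1.72 at 24 h. In each strain the vehicle arrays were lowest, the 24 h arrays intermediate and the 2 h arrays highest. The rise was 4.04, 5 and 4.5-fold at 2 h and 2.44, 2.82 and 3.17-fold at 24 h in B6, C3H and F1 (adjusted p at most 2.5e-12 and 1.6e-09). With normexp correction the 2 h change in F1 was 1.07 with an adjusted p of 0.11. The rise of Wnt7b at 24 h was then called in no strain, though its sign held.

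Wnt10b, which signals through beta-catenin, stood well above background at 2 h and at no other time. In B6, Wnt10b lay at −7.04, −7.89 and −7.13 on the vehicle arrays, at −5.19, −4.89 and −5.45 at 2 h and at −8.34, −8.51 and −8.52 at 24 h. On C3H arrays Wnt10b lay at −6.60, −8.11 and −9.02 with vehicle, −5.39, −4.87 and −5.23 at 2 h and −8.98, −9.38 and −9.21 at 24 h. F1 arrays gave Wnt10b levels of −8.17, −7.27 and −8.63 with vehicle, −5.34, −5.67 and −6.18 at 2 h and −8.28, −8.72 and −8.92 at 24 h. The 9 arrays at 2 h were well above background and the 18 vehicle and 24 h arrays were not, so the lower values carry no order. The gene passed the filter on dim probes through the 2 h groups alone, so its level had to differ between 2 h and the other times, and no p is given. At 2 h Wnt10b was therefore at least 3.47-fold (B6), at least 3.25-fold (C3H) and at least 2.03-fold (F1) higher than with vehicle. With normexp correction the fitted change was 0.50 in B6 and turned to −0.40 in C3H and −0.88 in F1.

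Wnt10a fell at 2 h. Wnt10a levels on the B6 arrays were −4.60, −4.16 and −4.19 with vehicle, −5.34, −6.38 and −5.46 at 2 h and −2.30, −2.87 and −4.31 at 24 h. Wnt10a in C3H measured −3.09, −2.66 and −2.97 with vehicle, then −5.28, −5.55 and −5.73 at 2 h and −5.21, −4.05 and −5.53 at 24 h. In F1 Wnt10a started at −3.69, −4.07 and −4.19 and measured −6.64, −6.81 and −6.31 at 2 h and −3.78, −4.85 and −5.67 at 24 h. At 2 h all arrays lay below the vehicle arrays of their strain, and at 24 h the arrays of a group spread over more than 1 log2 unit. The 2 h changes were −1.41 ± 0.46, −2.61 ± 0.46 and −2.60 ± 0.46 (adjusted p at most 0.013). With normexp correction they were −0.05, −1.90 and −1.78 and passed in no strain, with the slide as a fixed block the B6 change was −1.03 with an adjusted p of 0.17, and without B6 E2 2 h replicate 2 the B6 change was −1.09 with an adjusted p of 0.079. In F1 1 of the 2 h arrays was not well above background.

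Wnt6, a ligand whose probe lies near that of Wnt10a on chromosome 1 (mm7, chr1:75024567-75024626 and chr1:75043739-75043798), fell at both times. In B6, Wnt6 lay at 0.82, 0.76 and 0.89 on the vehicle arrays, at −0.15, −0.50 and −0.69 at 2 h and at −1.68, −1.13 and −1.44 at 24 h. On C3H arrays Wnt6 lay at 1.14, 1.28 and 1.16 with vehicle, −0.37, −0.43 and −0.42 at 2 h and −0.67, −0.91 and −0.80 at 24 h. F1 arrays gave Wnt6 levels of 0.97, 1.06 and 1.24 with vehicle, −0.32, −0.35 and −0.26 at 2 h and −0.64, −0.88 and −0.68 at 24 h. No array after E2 reached a vehicle array of its strain, and the 24 h arrays were lower than the 2 h arrays throughout. The log2 changes were −1.27 ± 0.12, −1.60 ± 0.12 and −1.39 ± 0.12 at 2 h and −2.23 ± 0.12, −1.98 ± 0.12 and −1.82 ± 0.12 at 24 h (adjusted p at most 2.1e-08). Wnt10a at 24 h changed by 1.16, −2.02 and −0.79. Wnt1, whose probe neighbours that of Wnt10b on chromosome 15 (mm7, chr15:98778517-98778576 and chr15:98757734-98757793), was called at neither time in any strain.

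Wnt2 and Wnt11 were low at 24 h. Wnt2 is a ligand of mesenchymal cells. Wnt2 levels on the B6 arrays were −0.88, −0.44 and −0.38 with vehicle, −0.75, −0.86 and −0.97 at 2 h and −2.66, −2.75 and −2.80 at 24 h. Wnt2 in C3H measured 0.23, 0.20 and 0.07 with vehicle, then −0.19, −0.55 and −0.43 at 2 h and −1.64, −1.52 and −1.88 at 24 h. In F1 Wnt2 started at −0.12, −0.34 and −0.14 and measured −0.49, −0.64 and −0.48 at 2 h and −2.06, −2.16 and −2.21 at 24 h. The 24 h arrays lay below all others in each strain. Wnt2 was 4.49, 3.59 and 3.84-fold lower than vehicle at 24 h in B6, C3H and F1 (log2 −2.17 ± 0.12, −1.84 ± 0.12 and −1.94 ± 0.12, adjusted p at most 4.7e-11), after changes of −0.29, −0.56 and −0.33 at 2 h (adjusted p at most 0.04).

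Wnt11 is best known for the branch that steers cell movement. In B6, Wnt11 lay at −1.09, −0.84 and −0.58 on the vehicle arrays, at −1.20, −1.29 and −0.98 at 2 h and at −2.95, −3.30 and −3.19 at 24 h. On C3H arrays Wnt11 lay at −2.07, −1.82 and −2.08 with vehicle, −1.54, −1.57 and −1.56 at 2 h and −3.75, −3.50 and −3.98 at 24 h. F1 arrays gave Wnt11 levels of −1.39, −1.0 and −1.15 with vehicle, −1.42, −1.45 and −1.69 at 2 h and −3.41, −3.90 and −3.21 at 24 h. The 24 h arrays of each strain did not overlap its vehicle arrays. The fold decreases at 24 h were 4.95, 3.38 and 5.02 in B6, C3H and F1 (log2 −2.31 ± 0.16, −1.76 ± 0.16 and −2.33 ± 0.16, adjusted p at most 1.1e-08). With normexp correction the C3H change at 24 h was −0.78 with an adjusted p of 0.25. At 2 h its change passed the test in C3H alone, where it rose by 0.43 ± 0.16 (adjusted p = 0.029), with −0.32 ± 0.16 in B6 and −0.35 ± 0.16 in F1.

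Wnt5a, a ligand of the stroma that mostly acts without beta-catenin, was the 1 gene of the set that fell at 2 h and rose at 24 h in all 3 strains, as did 4.45% of all genes. Its probe, shown because this is the reverse of the Wnt4 course, is likewise placed on a longer stretch (mm7, chr14:25948244-25952114).
Wnt5a probe: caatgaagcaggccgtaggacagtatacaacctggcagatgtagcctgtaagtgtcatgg

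Wnt5a levels on the B6 arrays were −2.12, −2.16 and −2.06 with vehicle, −2.67, −2.43 and −2.53 at 2 h and −1.24, −1.73 and −0.99 at 24 h. Wnt5a in C3H measured −2.31, −2.28 and −2.38 with vehicle, then −3.10, −3.16 and −3.52 at 2 h and −1.59, −1.32 and −1.23 at 24 h. In F1 Wnt5a started at −2.47, −1.97 and −2.03 and measured −2.84, −2.58 and −2.69 at 2 h and −1.31, −1.37 and −1.15 at 24 h. In each strain the 24 h arrays were highest and the 2 h arrays lowest, with no overlap. The changes were −0.43 ± 0.16, −0.94 ± 0.16 and −0.55 ± 0.16 at 2 h (adjusted p at most 0.025) and 0.79 ± 0.16, 0.94 ± 0.16 and 0.88 ± 0.16 at 24 h (adjusted p at most 1.5e-04). With normexp correction the rise of Wnt5a at 24 h was called in no strain, though its sign held.

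Of the 15 measured ligands, 5, 4 and 6 rose and 5, 5 and 5 fell at 2 h in B6, C3H and F1, beside 23.1%, 24.9% and 23.7% of all genes higher and 33.1%, 35.4% and 35.5% lower. The rises include Wnt10b in each strain, which had to be high at 2 h to pass the filter. At 24 h 3, 2 and 2 rose and 8, 9 and 6 fell, beside 30.8%, 27.1% and 31.8% higher and 37.1%, 40.1% and 36.7% lower over all genes. Wnt7a, an epithelial ligand needed for uterine glands, fell at 2 h by 1.27 ± 0.14, 1.61 ± 0.14 and 1.23 ± 0.14 and at 24 h by 1.25 ± 0.14, 0.78 ± 0.14 and 1.05 ± 0.14 on the log2 scale (adjusted p at most 7.7e-05). Wnt1 and Wnt8b were called at neither time. Wnt9b, needed for the early tract, changed by 0.45, 0.45 and 0.18 at 2 h without passing and fell at 24 h in B6 and C3H (−0.49 ± 0.19 and −0.62 ± 0.19). Wnt5b fell at 24 h in all 3 strains (−0.52 ± 0.072, −0.68 ± 0.072 and −0.46 ± 0.072). Wnt2b was well above background on 9 of 27 arrays and was called once, in F1 at 2 h, where it was at least 1.54-fold higher. That is also the only group through which it passed the filter, so it had to be high there. With normexp correction the sign of the changes of Wnt2b in F1 at 2 h and of Wnt9b in C3H at 24 h turned. Wnt10b was called lower at 24 h in B6 and C3H, but neither group was well above background there and no fold is given. Wnt8b lacks a value on C3H E2 24 h replicate 2, and that group was fitted on 2 arrays.

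**Figure D3:**
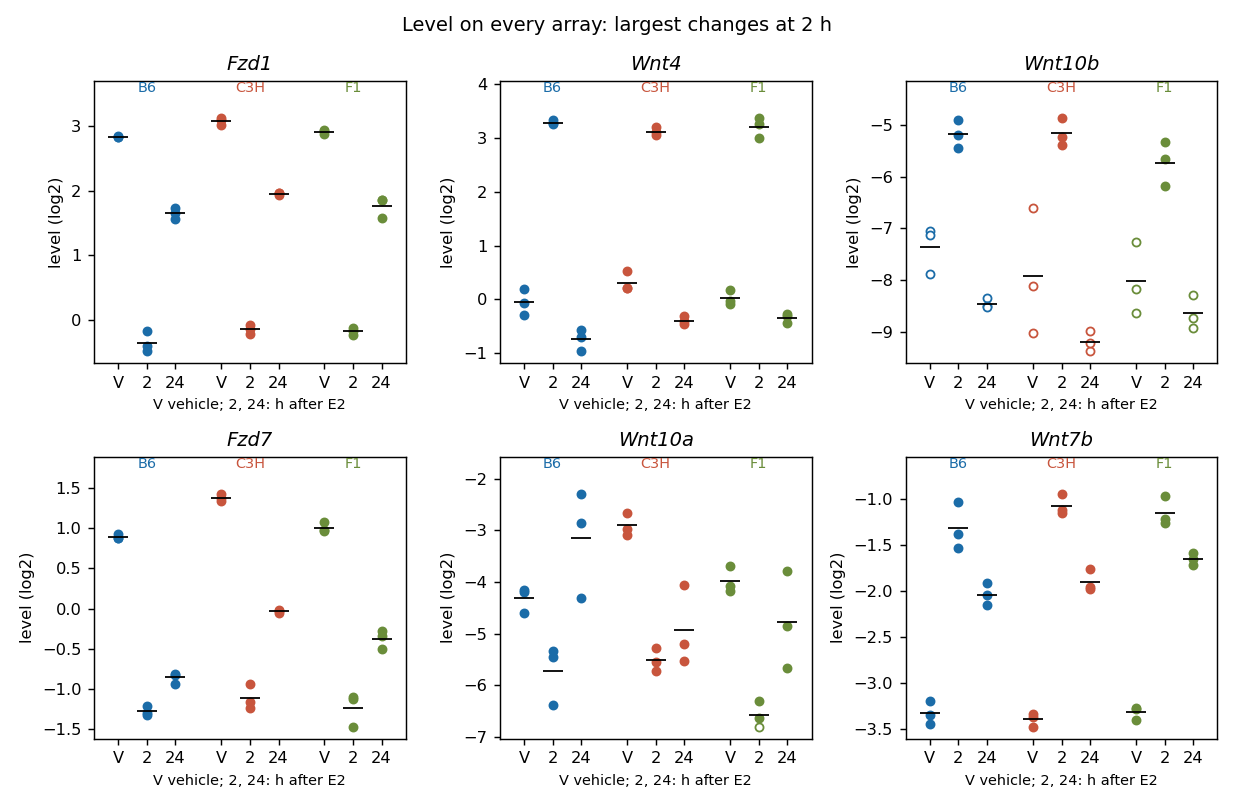
Level (log2, relative to the 75th percentile of the array) of the 6 genes with the largest mean change at 2 h, on every array of B6, C3H and F1 after vehicle (V) and 2 h and 24 h after E2. Points are arrays, bars are group means of 3 arrays, and open points are not well above background. Wnt4 sits near 3.2 at 2 h in all strains and Wnt10b has filled points at 2 h only.

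Among the Frizzled receptors, Fzd1 and Fzd7 fell at 2 h, and Fzd9 and the probes used for Fzd5 and Fzd8 rose. In B6, Fzd1 lay at 2.84, 2.83 and 2.84 on the vehicle arrays, at −0.18, −0.41 and −0.49 at 2 h and at 1.57, 1.73 and 1.65 at 24 h. On C3H arrays Fzd1 lay at 3.02, 3.13 and 3.09 with vehicle, −0.09, −0.15 and −0.22 at 2 h and 1.97, 1.97 and 1.93 at 24 h. F1 arrays gave Fzd1 levels of 2.92, 2.95 and 2.88 with vehicle, −0.13, −0.24 and −0.18 at 2 h and 1.86, 1.57 and 1.87 at 24 h. Every 2 h array was below every 24 h array, and every 24 h array was below every vehicle array. Fzd1 was 9.16, 9.37 and 8.56-fold lower than vehicle at 2 h in B6, C3H and F1 (log2 −3.20 ± 0.077, −3.23 ± 0.077 and −3.10 ± 0.077) and 2.28, 2.18 and 2.22-fold lower at 24 h (adjusted p at most 1.9e-17 and 1.3e-10). On the slides that held both groups, with 1 array of a group against 3 of the other, the 2 h change was −3.01 in B6 and −3.06 in F1.

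Fzd7 levels on the B6 arrays were 0.93, 0.88 and 0.88 with vehicle, −1.29, −1.20 and −1.33 at 2 h and −0.93, −0.83 and −0.81 at 24 h. Fzd7 in C3H measured 1.33, 1.37 and 1.42 with vehicle, then −1.24, −1.16 and −0.93 at 2 h and −0.01, −0.06 and −0.03 at 24 h. In F1 Fzd7 started at 0.98, 0.96 and 1.07 and measured −1.10, −1.47 and −1.12 at 2 h and −0.34, −0.50 and −0.28 at 24 h. These values are from the brighter of its probes, and the arrays of the 3 treatments did not overlap within a strain. Fzd7 fell 4.49, 5.6 and 4.69-fold at 2 h and 3.36, 2.65 and 2.6-fold at 24 h (log2 −2.17 ± 0.087, −2.49 ± 0.087 and −2.23 ± 0.087 and −1.75 ± 0.087, −1.41 ± 0.087 and −1.38 ± 0.087, adjusted p at most 2.5e-14 and 3.1e-11). Its other probe changed by −1.24, −1.06 and −1.22 at 2 h and by −0.21, −0.09 and −0.29 at 24 h. That course resembles the Fzd2 probe, which changed by −1.07, −0.95 and −1.08 and −0.20, −0.02 and −0.23.

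The second Fzd7 probe (mm7, chr1:59735681-59735740) and the Fzd2 probe (mm7, chr11:102715340-102715399) read a related stretch of both genes. Aligned over 50 bases, they share 42, which are in capitals. Whether either probe takes up RNA of the other gene was not tested.
Fzd2 probe: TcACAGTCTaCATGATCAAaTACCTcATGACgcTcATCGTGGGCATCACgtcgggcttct
Fzd7 second probe: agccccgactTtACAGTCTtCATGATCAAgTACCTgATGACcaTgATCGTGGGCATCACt

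All 10 Frizzled genes were measured. Of these 4, 4 and 3 rose and 4, 4 and 5 fell at 2 h in B6, C3H and F1, and at 24 h 2, 1 and 1 rose and 6, 5 and 6 fell. These counts stand beside the same shares of all genes as those of the ligands. Fzd10 fell at both times (−1.30 ± 0.20, −1.65 ± 0.20 and −1.56 ± 0.20 at 2 h and −1.34 ± 0.20, −1.02 ± 0.20 and −0.83 ± 0.20 at 24 h). Fzd2 fell at 2 h and passed the test in no strain at 24 h. Fzd9 rose at 2 h (0.89, 0.59 and 0.93, adjusted p at most 0.017) and fell at 24 h (−0.49, −1.28 and −0.72, adjusted p at most 0.041). On the probes used, Fzd5 rose at 2 h by 0.49, 0.24 and 0.37 and Fzd8 by 0.44, 0.57 and 0.52. A probe that the files name AI427138, whose accession RefSeq gives to Fzd5, changed by −0.16, −0.51 and −0.01 at 2 h and by −0.35, −0.58 and −0.39 at 24 h, so the direction of Fzd5 at 2 h depends on the probe. The second Fzd8 probe changed by 0.49, 0.23 and 0.11 at 2 h and by 0.10, −0.26 and −0.73 at 24 h, so the direction of Fzd8 at 24 h depends on the probe in C3H and F1. These rises of Fzd5, Fzd8 and Fzd9 at 2 h all turned sign with normexp in C3H and in F1. The rise of Fzd8 at 24 h (0.30, 0.31 and 0.26) turned sign in B6 and F1 and was not called in C3H. Normexp also moved the median change of all genes, to 0.10, −0.39 and −0.49 at 2 h in B6, C3H and F1. At 24 h that median was −0.30, 0.08 and −0.48. The part of this shift in the turned signs was not tested. Fzd4, a receptor of blood vessels, fell at 24 h in all 3 strains (−0.56 ± 0.15, −0.48 ± 0.15 and −0.61 ± 0.15, adjusted p at most 0.01). Fzd3 and Fzd6 changed by less than 0.60 log2 in every strain. A second Fzd3 probe changed by −0.38, −0.20 and −0.21 at 24 h, where the probe used gave 0.39, 0.09 and 0.05. A probe named D930050A07Rik, assigned to Fzd3 by its accession, changed by −0.37, −0.37 and −0.67 there, so the direction of Fzd3 depends on the probe too.

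Of the co-receptors, Lrp5 rose at 2 h. In B6, Lrp5 lay at −1.19, −1.53 and −1.43 on the vehicle arrays, at −0.21, 0.00 and −0.14 at 2 h and at −1.04, −1.21 and −1.07 at 24 h. On C3H arrays Lrp5 lay at −1.28, −1.45 and −1.30 with vehicle, −0.09, −0.02 and −0.10 at 2 h and −1.11, −1.48 and −1.43 at 24 h. F1 arrays gave Lrp5 levels of −1.74, −1.57 and −1.53 with vehicle, −0.55, −0.54 and −0.58 at 2 h and −1.38, −1.11 and −1.43 at 24 h. All 2 h arrays of Lrp5 lay above all other arrays of their strain. Its rise at 2 h was 1.27 ± 0.10, 1.27 ± 0.10 and 1.06 ± 0.10 (adjusted p at most 1.7e-08), and at 24 h its changes were 0.28, 0.00 and 0.31, called in B6 and F1. The F1 change at 24 h turned sign with normexp correction, and the B6 change was then not called.

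On the probe used, Lrp6 fell at 2 h by 0.42 ± 0.14, 0.89 ± 0.14 and 0.59 ± 0.14 and at 24 h by 0.61 ± 0.14, 0.54 ± 0.14 and 0.68 ± 0.14 on the log2 scale in B6, C3H and F1 (adjusted p at most 0.014 and 0.0022). A probe that the files name C030016K15Rik, whose accession RefSeq gives to Lrp6, did otherwise. It changed by 0.71, 0.68 and 0.89 at 2 h and by −0.58, −0.87 and −0.68 at 24 h. The direction of Lrp6 at 2 h thus depends on the probe.

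Of the secreted inhibitors, Wif1 showed the largest change of the whole set. Wif1 levels on the B6 arrays were 0.08, 0.54 and 0.02 with vehicle, 0.27, 0.48 and 0.18 at 2 h and −2.80, −3.42 and −3.17 at 24 h. Wif1 in C3H measured −0.02, 0.07 and −0.16 with vehicle, then −0.44, −0.36 and −0.68 at 2 h and −4.28, −4.43 and −4.49 at 24 h. In F1 Wif1 started at −0.06, 0.22 and 0.17 and measured 0.35, 0.28 and 0.18 at 2 h and −4.35, −2.67 and −3.51 at 24 h. No 24 h array lay above −2.67 and no other array lay below −0.68. Wif1 was 10.1, 20.6 and 12.3-fold lower than vehicle at 24 h (log2 −3.34 ± 0.26, −4.36 ± 0.26 and −3.62 ± 0.26, adjusted p at most 4.1e-10), and at 2 h its changes of 0.10 ± 0.26, −0.45 ± 0.26 and 0.16 ± 0.26 did not pass.

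Sfrp2, which binds Wnt ligands in the matrix, fell stepwise. In B6, Sfrp2 lay at 3.41, 3.34 and 3.25 on the vehicle arrays, at 3.01, 2.87 and 2.93 at 2 h and at 1.01, 1.13 and 1.37 at 24 h. On C3H arrays Sfrp2 lay at 3.68, 3.65 and 3.51 with vehicle, 3.17, 3.21 and 3.03 at 2 h and 2.47, 2.42 and 2.23 at 24 h. F1 arrays gave Sfrp2 levels of 3.50, 3.66 and 3.79 with vehicle, 3.02, 3.14 and 3.00 at 2 h and 2.02, 1.77 and 2.12 at 24 h. Within each strain the vehicle arrays were highest and the 24 h arrays lowest, with no overlap. It fell by 0.40 ± 0.10, 0.48 ± 0.10 and 0.60 ± 0.10 at 2 h and by 2.16 ± 0.10, 1.24 ± 0.10 and 1.68 ± 0.10 at 24 h on the log2 scale, 4.48, 2.36 and 3.21-fold at the later time (adjusted p at most 0.0022 and 1.8e-09).

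Of the 8 measured inhibitors 6, 6 and 5 fell at 24 h in B6, C3H and F1, with 0, 0 and 1 higher. Over all genes 37.1%, 40.1% and 36.7% were lower and 30.8%, 27.1% and 31.8% higher. Sfrp1 fell at 24 h (−1.43 ± 0.17, −0.72 ± 0.17 and −0.84 ± 0.17, adjusted p at most 9.9e-04). Dkk2, an antagonist or weak agonist at the co-receptors, fell at 2 h (−1.57 ± 0.15, −1.52 ± 0.15 and −0.99 ± 0.15) and at 24 h (−1.21 ± 0.15, −1.15 ± 0.15 and −0.92 ± 0.15). Dkk3 fell at 24 h alone (−1.15 ± 0.16, −0.54 ± 0.16 and −0.73 ± 0.16). Sfrp4 fell at 2 h in B6 and C3H (−1.17 ± 0.15 and −0.39 ± 0.15), beside −0.33 ± 0.15 in F1. Frzb rose at 2 h in B6 and F1 (0.41 ± 0.095 and 0.25 ± 0.095) and passed in no strain at 24 h. Sfrp5 was the inhibitor called higher at 24 h, in F1 (1.11 ± 0.27), after a rise at 2 h in C3H (0.91 ± 0.27), and both changes turned sign with normexp correction.

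**Figure D4:**
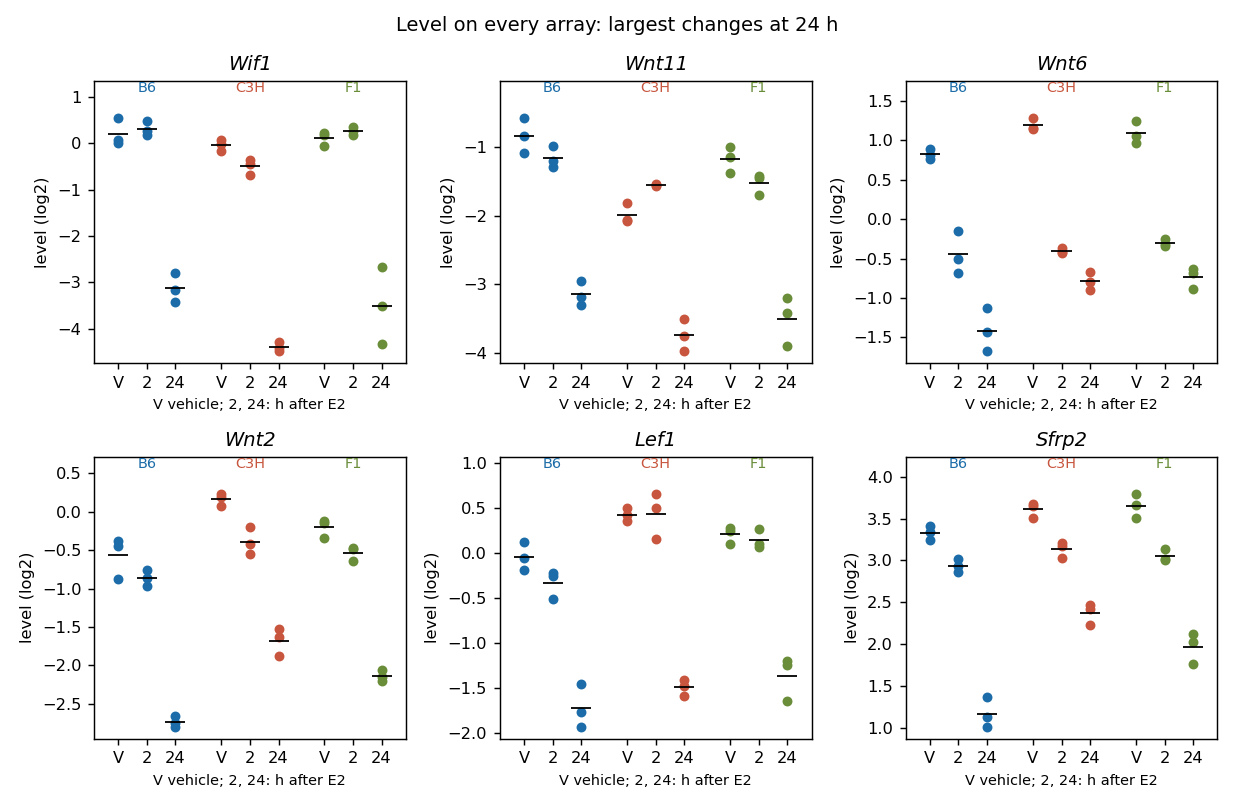
Level (log2, relative to the 75th percentile of the array) of the 6 genes with the largest mean change at 24 h, on every array, drawn as in the plot of the genes with the largest changes at 2 h. In all 6 genes and all strains the 24 h arrays lie below the vehicle arrays, and those of Wif1 lie at −2.67 or lower.

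Axin2, Lef1 and Lgr5, grouped here as target and reporter genes, were lower at 24 h in all 3 strains, as were 29% of all genes. Pathway activity itself was not measured. Axin2, a feedback inhibitor that beta-catenin switches on in many tissues, rose first. Axin2 levels on the B6 arrays were 0.05, 0.35 and 0.24 with vehicle, 1.43, 1.46 and 1.5 at 2 h and −0.96, −0.88 and −1.21 at 24 h. Axin2 in C3H measured 0.11, 0.26 and 0.13 with vehicle, then 1.35, 1.76 and 1.87 at 2 h and −0.65, −1.05 and −0.90 at 24 h. In F1 Axin2 started at 0.42, 0.45 and 0.58 and measured 1.51, 1.82 and 1.74 at 2 h and −0.85, −0.84 and −0.94 at 24 h. The 2 h arrays lay above and the 24 h arrays below the vehicle arrays in every strain. The changes were 1.25 ± 0.12, 1.49 ± 0.12 and 1.21 ± 0.12 at 2 h and −1.23 ± 0.12, −1.03 ± 0.12 and −1.36 ± 0.12 at 24 h (adjusted p at most 3.9e-08 and 3.9e-07).

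Lef1, a DNA-binding partner of beta-catenin, changed later. In B6, Lef1 lay at 0.13, −0.19 and −0.06 on the vehicle arrays, at −0.26, −0.22 and −0.51 at 2 h and at −1.94, −1.77 and −1.46 at 24 h. On C3H arrays Lef1 lay at 0.36, 0.50 and 0.42 with vehicle, 0.15, 0.66 and 0.50 at 2 h and −1.48, −1.42 and −1.59 at 24 h. F1 arrays gave Lef1 levels of 0.10, 0.29 and 0.25 with vehicle, 0.10, 0.27 and 0.07 at 2 h and −1.25, −1.65 and −1.20 at 24 h. The 24 h arrays lay below all other arrays of their strain. The decreases at 24 h were 3.21, 3.79 and 2.98-fold (log2 −1.68 ± 0.14, −1.92 ± 0.14 and −1.58 ± 0.14, adjusted p at most 3.3e-09), and no 2 h change passed (−0.29, 0.01 and −0.06). A second Lef1 probe changed by −1.52, −1.58 and −1.19 at 24 h. Lgr5, a receptor for R-spondins that marks epithelial stem cells, fell at 24 h (−1.65 ± 0.27, −1.39 ± 0.27 and −1.51 ± 0.27) and, in C3H and F1, at 2 h (−1.82 ± 0.27 and −1.70 ± 0.27, beside −0.56 ± 0.27 in B6).

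Across time some of the 38 genes shared a course. Wnt4, Axin2 and Fzd9 were higher at 2 h and lower at 24 h in all 3 strains, a course of 3.45% of all genes. Dkk2, Fzd1, Fzd7, Fzd10, Lrp6, Sfrp2, Wnt2, Wnt6 and Wnt7a were lower at both times, as were 13.3% of all genes. Fzd8 and Wnt7b were higher at both times, as were 7.2%, but with normexp correction neither was called higher at 24 h. For Lrp6 and Fzd8 these courses hold on the probe used and not in all 3 strains on the other one described above. Dkk3, Lef1, Sfrp1 and Wif1 were called at 24 h only, all lower, and the share of all genes with this course is not given. At 24 h 20 genes of the set were lower in all 3 strains, beside 29% of all genes. Set directly against each other, 24 h was below 2 h for 22, 19 and 18 genes (in the order B6, C3H, F1) and above it for 7, 8 and 7. The lower ones include Wnt10b in each strain, which had to be high at 2 h to pass the filter. In C3H they also include Wnt8b, which passed through vehicle and 2 h groups of B6 and C3H and through no 24 h group. Of its C3H arrays at 24 h, replicate 2 has no value and replicate 3 was not well above background. Of all genes 68.6%, 70.6% and 68.4% were called in these comparisons, 33.1%, 36.7% and 30.8% lower and 35.5%, 33.9% and 37.6% higher. The comparisons of 2 h and 24 h with vehicle share their vehicle arrays.

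The start regions of the genes at both ends of the 2 h response and of Wif1 are shown, since these are the genes the results turn on. Each is the 250 bases before the RefSeq start on GRCm38.p6, 5′ to 3′ on the gene's strand. Capitals mark GGTCA, the core letters of the estrogen response element, and the GC box GGGCGG, both on either strand. The windows are chr4:137277385-137277634 (plus strand, Wnt4), chr15:98778151-98778400 (minus, Wnt10b), chr5:4758217-4758466 (minus, Fzd1) and chr10:121033754-121034003 (plus, Wif1).
Wnt4: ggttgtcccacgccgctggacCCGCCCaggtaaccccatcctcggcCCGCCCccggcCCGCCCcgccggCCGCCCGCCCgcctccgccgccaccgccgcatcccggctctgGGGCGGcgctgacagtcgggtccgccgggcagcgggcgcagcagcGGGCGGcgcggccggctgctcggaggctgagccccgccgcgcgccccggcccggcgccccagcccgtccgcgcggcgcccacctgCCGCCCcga
Wnt10b: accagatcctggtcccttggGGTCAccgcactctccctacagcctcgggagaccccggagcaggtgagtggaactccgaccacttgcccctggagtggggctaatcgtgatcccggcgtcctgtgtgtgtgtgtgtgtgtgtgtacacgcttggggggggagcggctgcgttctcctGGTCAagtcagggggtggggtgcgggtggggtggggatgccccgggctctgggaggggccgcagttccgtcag
Fzd1: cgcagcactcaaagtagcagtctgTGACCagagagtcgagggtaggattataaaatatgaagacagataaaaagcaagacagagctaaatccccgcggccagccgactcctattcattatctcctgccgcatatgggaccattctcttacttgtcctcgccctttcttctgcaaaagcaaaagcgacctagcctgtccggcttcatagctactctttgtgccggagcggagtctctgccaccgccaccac
Wif1: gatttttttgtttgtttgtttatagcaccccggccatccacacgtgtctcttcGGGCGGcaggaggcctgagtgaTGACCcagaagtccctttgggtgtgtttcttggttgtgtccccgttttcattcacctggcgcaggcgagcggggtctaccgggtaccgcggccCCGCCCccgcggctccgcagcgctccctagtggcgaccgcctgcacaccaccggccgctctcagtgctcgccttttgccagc

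Wnt4 holds 8 GC boxes and 0 GGTCA sites, Wnt10b 2 GGTCA sites, Fzd1 1 GGTCA site and Wif1 1 GGTCA site and 2 GC boxes. RefSeq windows were at hand for 28 of the 43 genes, 34 in all. GGTCA lies in 14 of these 34 windows and in 35.2% of all 32851 windows, and a GC box in 25 of 34 and in 32.7%. The full element GGTCANNNTGACC lies in 0 of 34 and in 0.0639% of all, and the Tcf and Lef motif CTTTGAT in 2 of 34 (Wnt11 and Wnt5b) and in 3.21%. These are matches of letters and not measured binding.

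The wider pathway was read from 75 other genes, of which 74 were measured. At 2 h 16, 14 and 14 of them rose and 33, 40 and 38 fell in B6, C3H and F1, beside the shares of all genes given for the ligands. At 24 h 17, 8 and 10 rose and 40, 41 and 39 fell, with median changes of −0.29, −0.34 and −0.32. Over all genes 30.8%, 27.1% and 31.8% were higher and 37.1%, 40.1% and 36.7% lower at 24 h. The medians over all genes were −0.05, −0.16 and −0.03. The counts of the smaller lists stand beside the same shares of their time. Of 12 genes that release, carry or modulate the ligand, 6, 8 and 7 fell at 2 h and 7, 7 and 5 at 24 h. In this list 0, 0 and 1 rose at 2 h and 2, 2 and 2 at 24 h. Rspo3, an R-spondin that strengthens the signal, fell at 2 h (−2.85 ± 0.25, −3.31 ± 0.25 and −2.68 ± 0.25), as did Apcdd1, an inhibitor at the membrane (−2.30 ± 0.12, −2.90 ± 0.12 and −2.68 ± 0.12). Notum, an enzyme that inactivates Wnt ligands, fell at 24 h (−2.94 ± 0.17, −3.13 ± 0.17 and −2.80 ± 0.17) after changes of 0.28, 0.37 and 0.13 at 2 h that did not pass.

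Among 11 other receptors and regulators of receptor turnover, 3, 3 and 3 rose and 5, 8 and 6 fell at 2 h. Lgr6, a relative of Lgr5, rose at 2 h (2.86 ± 0.14, 2.30 ± 0.14 and 2.64 ± 0.14). Rnf43, a ligase that removes Frizzled from the membrane, fell (−1.82 ± 0.12, −2.02 ± 0.12 and −2.13 ± 0.12), and Kremen1, a Dkk receptor, fell at 24 h (−1.26 ± 0.085, −1.30 ± 0.085 and −1.42 ± 0.085). Of 18 genes of the cytoplasmic relay 6, 6 and 6 rose and 5, 6 and 6 fell at 2 h. Amer1 fell most there (−2.27, −2.74 and −2.58), and Csnk1a1, a kinase of the destruction complex, rose (1.09, 1.08 and 1.22).

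Of 13 nuclear partners 3, 2 and 2 rose and 8, 8 and 8 fell at 2 h. The co-repressor gene Tle1 fell (−1.58 ± 0.13, −2.24 ± 0.13 and −1.73 ± 0.13) and Tle3 rose (1.31 ± 0.095, 1.29 ± 0.095 and 1.33 ± 0.095). Of 13 genes of the polarity and calcium branch 4, 2 and 2 rose and 8, 9 and 8 fell at 24 h. Prickle1 changed by −1.22, −1.25 and −1.28 and Prickle2 by −0.96, −1.06 and −1.32. Of 12 genes often switched on by beta-catenin, 3, 3 and 3 rose and 6, 7 and 8 fell at 2 h, and 2, 0 and 0 rose and 7, 8 and 8 fell at 24 h. Sp5, a close target in many tissues, was lower at both times (−2.27 ± 0.16, −2.07 ± 0.16 and −2.01 ± 0.16 and −1.29 ± 0.16, −1.31 ± 0.16 and −1.11 ± 0.16), unlike Axin2.

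Whole tissue was measured, so fewer cells of a type and less RNA per cell cannot be told apart. Markers of other cell types moved too. All 8 epithelial markers were higher at 24 h in every strain. Their summed level (the array's 75th percentile being 1) was 122 to 129 with vehicle and 283 to 301 at 24 h in B6. In C3H it was 125 to 139 and 226 to 256, and in F1 127 to 150 and 271 to 317. Of 6 endothelial markers 5, 3 and 5 were lower at 24 h, with sums of 32.7 to 36 over the vehicle groups and 17.6 to 22.2 at 24 h. Their median log2 change was −0.48, −0.26 and −0.44, and Cldn5 fell most in each strain. Of 8 stromal markers 4 rose and 4 fell in each strain. Of 7 smooth muscle markers 5, 5 and 7 rose. The 4 fat markers summed to 1.57 to 61.6 over the vehicle arrays and 2.19 to 14.8 at 24 h, with 1, 0 and 4 of them called lower in B6, C3H and F1. The 8 leukocyte markers summed to 67.7 to 180 over vehicle arrays and 52.3 to 106 at 24 h, with 3 called lower in B6 and 1 called higher in each of C3H and F1. The 4 measured gland markers summed to 3.6 to 5.77 over vehicle arrays and 1.99 to 2.74 at 24 h, and the 5 measured markers of ovary and oviduct to at most 3.01. At 24 h 2 gland markers were called lower in each strain, and 1 was called higher in F1. The part of these shifts in the falls of Wnt genes was not tested.

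At 2 h other markers had moved as well. Of the 8 stromal markers 6 were lower and 1 higher in each strain, and their summed level went from 433 to 464 with vehicle to 322 to 363 in B6. In C3H it went from 504 to 531 to 364 to 394, and in F1 from 492 to 498 to 369 to 397. Of the 6 endothelial markers 4, 3 and 4 were lower in B6, C3H and F1, with sums of 32.7 to 36 over the vehicle arrays and 18.5 to 22.9 at 2 h. Of the 6 uterine identity genes 4, 5 and 5 were lower and 1 was higher in each strain, with sums of 42.5 to 50.6 over the vehicle arrays and 22.6 to 26.1 at 2 h. Of the 8 epithelial markers 3, 4 and 3 were lower and 1 was higher in each strain. Smooth muscle markers were higher in 3, 2 and 3 of 7 cases, with 1 lower in each strain. Among the 4 measured gland markers 0, 2 and 1 were higher and 1 was lower in each strain. The leukocyte markers S100a8 and S100a9 were higher in C3H, and no leukocyte marker was called in B6 or F1. The part of these shifts in the 2 h falls, such as those of Fzd1 and Fzd7, was not tested.

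Without E2 the strains already differed. C3H and B6 vehicle uteri differed in 15 of the 38 genes, 12 higher and 3 lower in C3H, against 24.1% of all genes (13.1% higher, 11.1% lower). F1 differed from B6 in 8 genes (6 higher, 2 lower, against 12.5% of all genes, 5.17% higher and 7.33% lower) and from C3H in 7 (1 higher, 6 lower, against 14.3%, 5.29% higher and 9.05% lower). With normexp correction these counts were 5, 2 and 0, against 3.21%, 0.439% and 0.334% of all genes. Without the 3 arrays that stood apart F1 and C3H differed in 12 genes. The vehicle arrays of the 3 strains shared no slide. With the slide as a fixed block 6 genes differed between C3H and B6, and the comparisons with F1 could not be fitted. The shares of all genes without those arrays and with the slide block are not given. Marker levels differed between these vehicle groups too. The stromal sum was 504 to 531 in C3H, 492 to 498 in F1 and 433 to 464 in B6, and the smooth muscle sum was 640 to 687, 510 to 559 and 503 to 575. The gland sum was 5.35 to 5.77 in C3H, 4.96 to 5.33 in F1 and 3.6 to 3.83 in B6. The leukocyte sum was 71.4 to 90.8, 67.7 to 87.8 and 95.6 to 180, and the fat sum was 1.57 to 18.4 in C3H, 13.9 to 61.6 in F1 and 17.8 to 40.8 in B6. The part of these levels in the strain differences was not tested.

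Frzb, a secreted Wnt binder of the Sfrp family, had the smallest p. In B6, Frzb lay at −1.12, −1.31 and −1.57 on the vehicle arrays, at −0.90, −0.84 and −1.03 at 2 h and at −1.25, −1.15 and −1.27 at 24 h. On C3H arrays Frzb lay at 0.30, 0.21 and 0.19 with vehicle, 0.42, 0.25 and 0.38 at 2 h and 0.18, 0.13 and 0.06 at 24 h. F1 arrays gave Frzb levels of −0.43, −0.32 and −0.38 with vehicle, −0.18, −0.16 and −0.04 at 2 h and −0.42, −0.65 and −0.32 at 24 h. At every time all C3H arrays lay above all F1 arrays, and these above all B6 arrays. In vehicle uterus C3H exceeded B6 by 1.56 ± 0.095 (2.96-fold, adjusted p = 4.7e-11) and F1 exceeded B6 by 0.95 ± 0.095 (adjusted p = 5.2e-07).

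Lrp6 and Sfrp1 were ordered the same way. Lrp6 levels on the B6 arrays were −2.95, −2.38 and −2.28 with vehicle, −3.0, −3.06 and −2.80 at 2 h and −3.07, −3.40 and −2.97 at 24 h. Lrp6 in C3H measured −0.73, −0.57 and −0.82 with vehicle, then −1.55, −1.67 and −1.57 at 2 h and −1.24, −1.25 and −1.23 at 24 h. In F1 Lrp6 started at −1.64, −1.47 and −1.35 and measured −1.88, −2.25 and −2.10 at 2 h and −2.11, −2.24 and −2.17 at 24 h. All C3H arrays lay above all F1 arrays of the same treatment, and these above the B6 arrays. Lrp6 was 1.83 ± 0.14 log2 higher in vehicle uterus of C3H than of B6 (3.56-fold, adjusted p = 1.9e-09). The second probe assigned to Lrp6 differed by −0.44, the other way.

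In B6, Sfrp1 lay at −0.71, −0.73 and −0.48 on the vehicle arrays, at −0.74, −0.95 and −1.09 at 2 h and at −2.03, −2.09 and −2.09 at 24 h. On C3H arrays Sfrp1 lay at 1.08, 1.32 and 1.36 with vehicle, 1.11, 0.80 and 0.91 at 2 h and 0.45, 0.69 and 0.48 at 24 h. F1 arrays gave Sfrp1 levels of 0.49, 0.24 and 0.28 with vehicle, 0.18, −0.33 and 0.27 at 2 h and −0.55, −0.90 and −0.05 at 24 h. Here again C3H was highest and B6 lowest on every array. Sfrp1 in vehicle uterus was 1.89 ± 0.17 log2 higher in C3H than in B6 (3.72-fold, adjusted p = 2.5e-08), but a second Sfrp1 probe differed by 0.42. Fzd2 behaved likewise: its used probe differed by 0.16 between C3H and B6 and its second by −2.50. For these 3 genes the size or direction of the strain difference thus depends on the probe, and whether the strains differ in sequence under the probes was not tested. Changes after E2 within a strain were alike on both Sfrp1 probes in B6 (−1.43 and −1.45 at 24 h) and less so in C3H (−0.72 and −0.44).

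Wnt5b ran the other way. Wnt5b levels on the B6 arrays were 1.28, 1.41 and 1.28 with vehicle, 2.23, 2.34 and 2.19 at 2 h and 0.91, 0.73 and 0.77 at 24 h. Wnt5b in C3H measured 0.75, 0.56 and 0.75 with vehicle, then 0.80, 0.86 and 0.87 at 2 h and 0.08, 0.04 and −0.08 at 24 h. In F1 Wnt5b started at 0.86, 0.88 and 0.89 and measured 1.38, 1.45 and 1.51 at 2 h and 0.30, 0.39 and 0.56 at 24 h. B6 arrays were highest and C3H arrays lowest under each treatment. In vehicle uterus Wnt5b was 0.63 ± 0.072 log2 lower in C3H than in B6 (adjusted p = 7.7e-07), and its second probe differed by −0.73. Wnt11 was also lower in C3H (−1.15 ± 0.16, adjusted p = 1.6e-05), and Wnt2 was higher (0.73 ± 0.12, adjusted p = 6.3e-05). Neither passed with normexp correction or with the slide as a fixed block, where the values were −0.80 and −1.15 for Wnt11 and 0.64 and 0.99 for Wnt2.

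In F1 the level of most genes that differed between the parents lay between them, as over all genes. Of the 15 genes that differed between C3H and B6 with vehicle, the F1 mean lay between the parental means in 15. At 2 h this held for 12 of 13, with Lgr5 outside, and at 24 h for 17 of 19, with Wnt4 and Wnt6 outside. Of all genes, 24.1% (vehicle), 30.8% (2 h) and 38.5% (24 h) differed between C3H and B6, and among these the F1 mean lay between the parental means in 87.2%, 78.1% and 86.8%. On the probes used, Frzb, Fzd1, Lrp6, Sfrp1, Sfrp4, Wnt2 and Wnt5b differed between C3H and B6 under all 3 treatments, with the same sign each time. The share of all genes that did so is not given. With vehicle the other Lrp6 probe differed by −0.44, the other way, and the second Sfrp1 probe by 0.42.

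**Figure D5:**
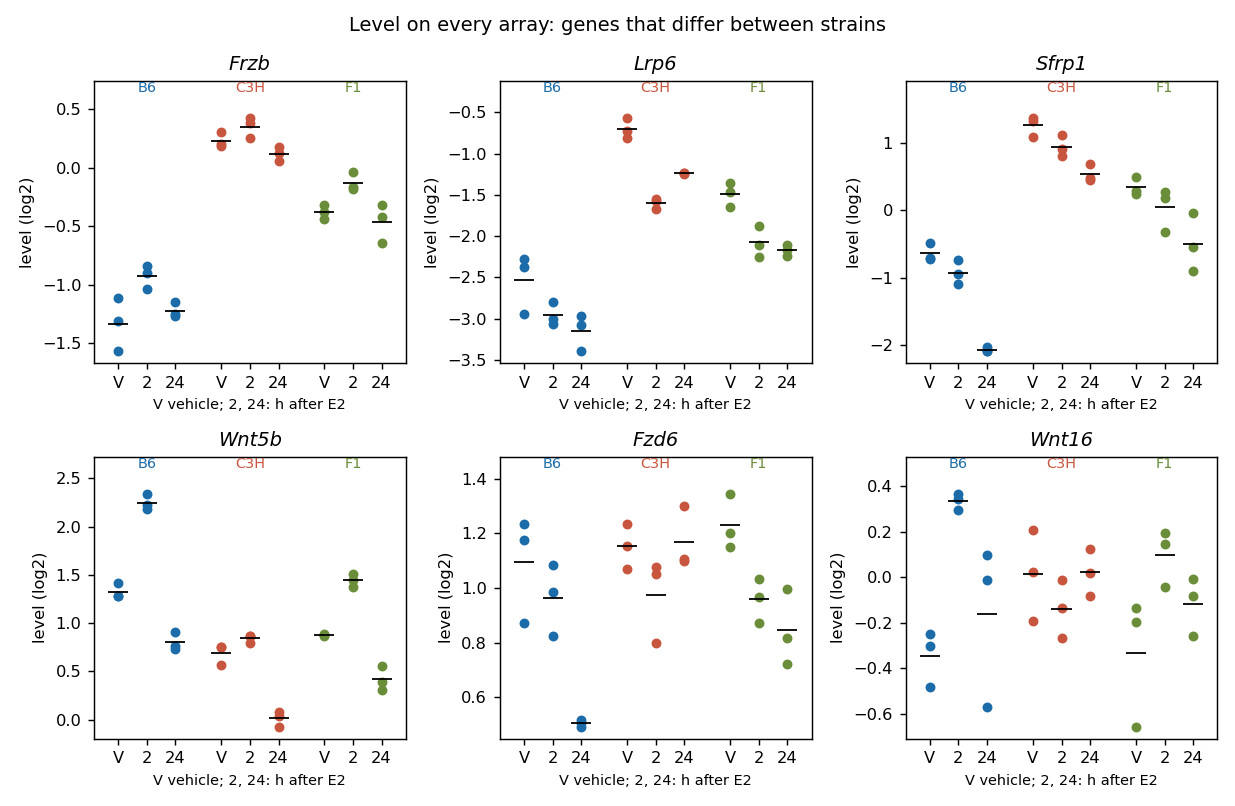
Level (log2, relative to the 75th percentile of the array) on every array of 4 genes that differ between strains with vehicle (Frzb, Lrp6, Sfrp1, Wnt5b) and 2 whose response to E2 differs (Fzd6, Wnt16). Points are arrays and bars are means of 3. For Frzb, Lrp6 and Sfrp1 the C3H points lie above the F1 points and these above the B6 points, and for Wnt5b the order is reversed.

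The response to E2 itself was tested as the difference of 2 changes. At 2 h 2 genes responded differently in C3H and B6, both with the lower change in C3H, against 2.16% of all genes (0.791% higher, 1.37% lower). Wnt5b rose by 0.93 ± 0.072 in B6 and changed by 0.15 ± 0.072 in C3H, a difference of −0.77 ± 0.10 (adjusted p = 0.00011). Its second probe changed by 1.10 and 0.38. Wnt16 lay at −0.48, −0.25 and −0.30 with vehicle and 0.37, 0.34 and 0.30 at 2 h in B6. In C3H it lay at 0.02, 0.21 and −0.19 and −0.14, −0.01 and −0.26. The B6 arrays thus separated and the C3H arrays overlapped, a difference in response of −0.83 ± 0.21 (adjusted p = 0.044). This call was lost in 10 of 12 fits that left out 1 array, with adjusted p up to 0.13, and without the 3 arrays that stood apart (adjusted p = 0.15).

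At 24 h 4 genes responded differently in C3H and B6, 3 with the higher and 1 with the lower change in C3H. Of all genes 18.7% did (5.78% higher, 12.9% lower). Without the 3 arrays that stood apart 12 genes of the set did, and the share of all genes in that fit is not given. Sfrp2 fell less in C3H than in B6, by 0.92 ± 0.14 (adjusted p = 0.00026). Fzd6, a receptor of the polarity branch, lay at 0.87, 1.23 and 1.18 with vehicle and 0.52, 0.49 and 0.51 at 24 h in B6. In C3H the values were 1.15, 1.23 and 1.07 and 1.10, 1.30 and 1.11, so that only the B6 groups separated, with a difference in response of 0.61 ± 0.14 (adjusted p = 0.0059). Wnt10a rose by 1.16 ± 0.46 in B6 and fell by 2.02 ± 0.46 in C3H on the log2 scale, a difference of −3.18 ± 0.66 (adjusted p = 0.0025). For Sfrp1 the difference was 0.72 ± 0.24 (adjusted p = 0.043), and leaving out 1 array ended the call in 10 of 12 fits, with adjusted p up to 0.11, as did median centring (0.061), quantile normalization (0.13) and no filter on dim probes (0.056).

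With median centring 2 genes responded more highly and 5 less highly in C3H at 24 h, in place of 3 and 1. Of all genes 18.3% were then called. With normexp correction none of the response calls at either time remained. Over all genes normexp called 0.0915% at 2 h and 0.599% at 24 h for the C3H against B6 response. The normexp differences were 0.78 for Sfrp2, −0.65 for Wnt5b, −0.75 for Wnt16, 0.46 for Fzd6, 0.55 for Sfrp1 and −1.08 for Wnt10a. No gene of the set was called by limma in the 4 comparisons of the F1 response with a parent, where 0.599% (2 h, B6), 0.229% (2 h, C3H), 1.9% (24 h, B6) and 3.7% (24 h, C3H) of all genes were. At an unadjusted p under 0.05 the counts were 5, 5, 8 and 8. Without C3H E2 24 h replicate 1 the last comparison called 5 genes. Shares of all genes are not given for these unadjusted counts or for this fit, so they are no result about the set.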

How the data were processed

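RNA intensity was deposited per spot for 27 arrays of 45018 spots each. Agilent Feature Extraction (9.5, per the submitters' processing notes) had subtracted background and removed spatial trends from this intensity array by array, per the file headers. The value table repeats this intensity in 27 of 27 columns. Here control spots (1639) and outlier-marked spots (48 to 117 per array) were dropped, saturated spots kept and spots of a probe averaged, giving 41174 probes. Probes were named by accession through RefSeq (GRCm38.p6, names only) or by the file's name, and members by the file's name. Log2 intensity minus each array's 75th percentile was fitted with limma 3.58.1 (lmFit, eBayes) in R 4.3.3, with 18 contrasts, on the brightest probe of each gene. The number of arrays limits the precision. "At least" folds set the bright group against, per dim array, the dim probe's signal or, if higher, the lowest signal of any probe well above background. The fit was tested on simulated data. Values on every array are given for the 6 genes with the largest mean change at each time among those called alike in all strains, and for strain calls by smallest adjusted p. Axin2, Fzd6, Lrp5, Wnt16 and Wnt5a were added after their values were seen. The genes and lists were chosen with earlier results of these data known. Slide (at most 4 arrays) equals scan. Alternatives were normexp (offset 50), median centring, quantile normalization, no filter, the mean of a gene's probes, slide as block, replicate block and leaving out arrays. Python 3.11.15, pandas 2.3.3 and matplotlib 3.10.9 drew the plots.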

Additional observations from a re-analysis of the deposited data

Results flagged for a closer look

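In 6 cases the response to E2 differed between C3H and B6 by the limma interaction term. At 2 h the difference (C3H minus B6, log2) was −0.83 for Wnt16 and −0.77 for Wnt5b, and at 24 h it was 0.61 for Fzd6, 0.72 for Sfrp1, 0.92 for Sfrp2 and −3.18 for Wnt10a. Wnt10a changed in opposite directions in the parents, and its B6 arrays at 24 h spread from −4.31 to −2.30. These were 2 of 38 genes at 2 h and 4 at 24 h, against 2.16% and 18.7% of all genes. None of the 6 calls remained with normexp correction. Wnt16 and Sfrp1 each lost the call in 10 of 12 fits that left out 1 array.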

How the results depend on the processing

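Of 48 named changes, 32 kept direction and call under every alternative run, and 11 of the other 16 changed with normexp alone. Its 2 reversals were Wnt10b at 2 h in C3H (−0.40) and F1 (−0.88), where the vehicle arrays are below background. For the number of genes called, normexp gave 14, 12 and 12 at 2 h in B6, C3H and F1, 16 and 16 at 24 h in C3H and F1, and 17 and 13 for 24 h against 2 h in B6 and C3H. It gave 5, 2 and 0 for C3H against B6, F1 against B6 and F1 against C3H in vehicle, and 0 for the C3H against B6 response at either time. Of all genes normexp called 19% to 32.2% for E2 against vehicle and 3.21%, 0.439% and 0.334% between strains in vehicle. For 24 h against 2 h it called 35.2% and 31.1% of all genes in B6 and C3H. For the C3H against B6 response, quantile normalization gave 4 genes at 2 h, no filter 1 at 2 h, and median centring 7 at 24 h. Of all genes quantile normalization called 2.8% at 2 h and median centring 18.3% at 24 h. Slide as a fixed block gave 6 genes for C3H against B6 in vehicle. Slide could not be fitted as a fixed block for E2 against vehicle in C3H, for F1 at 24 h, for F1 against either parent in vehicle or for most response differences, where slide and group cannot be told apart. As a random block slide had a correlation of 0.007. Within slides that held both groups, 25 of 25 (B6) and 26 of 26 (F1) calls at 2 h kept their sign. For 24 h against 2 h 29 of 29 (B6) and 26 of 27 (C3H) did. The exception, Fzd10, had 0.63 over all arrays and −0.15 within the slide. The largest shift of a called change was 0.38, 0.74, 0.77 and 1.02, in that order. These slides set 1 array against 3, apart from 2 against 2 for 24 h against 2 h in B6. In C3H the 24 h array was replicate 1, which stood apart. Same-numbered arrays deviated together, with every correlation over 0.1, in 1 of 36 pairs of groups. Single correlations ran from −0.257 to 0.344, and the 3 arrays that stood apart were all replicate 1. With 3 arrays per group this check cannot tell whether same-numbered arrays share a batch. With a replicate block, 1 gene was called in the F1 against B6 response at 2 h, Wnt16 lost its call (−0.83), and no other count moved by over 1.5 times. Leaving out 1 array gave 1 to 3 genes for the C3H against B6 response at 2 h and 3 to 10 at 24 h. It gave 0 to 1 for F1 against B6 at 24 h, 0 to 5 for F1 against C3H at 24 h, and 4 to 7 for F1 against B6 in vehicle. The highest counts of the response at 24 h came without C3H E2 24 h replicate 1 (10 and 5) and B6 vehicle replicate 1 (8). Without the 3 arrays that stood apart, chosen after seeing the data, these were 1 (C3H against B6, 2 h), 12 (C3H against B6, 24 h), 7 (F1 against C3H, 24 h) and 12 (F1 against C3H in vehicle). Shares of all genes are not given for the fits that left out arrays, used slide as a fixed block or used no filter. Those counts are therefore no result about the set. The causes were not tested. Signals near background limit Wnt10b, Wnt2b and Wnt8b.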
